A study of Mus musculus with 2 samples.

Results

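Accessible regions that lay between genes, near but not at a start site, numbered 3351 of the 20080 regions of a list reproducible between libraries (16.7%, 95% Wilson interval 16.2 to 17.2). A region was taken where its strongest summit, by the authors' signal, lay outside every protein-coding gene body and over 1 kb but at most 50 kb from the nearest protein-coding transcription start site of GENCODE release M21. Each was called upstream or downstream by the direction of the gene with that nearest start, which gave 2324 upstream and 1027 downstream regions. The word intergenic refers to protein-coding genes alone: 497 of the summits (14.8%) lay inside an annotated noncoding gene or pseudogene, a kind of sequence that made up 11.4% of the bases meeting the same limits.

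The regions came from ATAC-seq, in which a transposase cuts open chromatin, in G1E-ER4 cells, a male mouse line of erythroid progenitors. The line derives from cells that lack Gata1 and carries a GATA1 fusion with the hormone-binding part of the estrogen receptor, so that estradiol lets the factor act and the cells mature along the red cell path. Both libraries were of 1 group, 50000 cells each after 24 h in 10 nM 17beta-estradiol, and were labelled as biological replicates 1 and 2 with nothing further said of the cultures. Untreated cells were not among the samples used here and no value is a response to estradiol, and with 2 libraries of 1 group no test between conditions was possible; read depth was unknown.

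Accessible DNA between genes can hold enhancers, insulators and starts of noncoding transcripts. In red cell precursors GATA1 binds a short GATA sequence, often beside a partial E-box bound with TAL1, and such composite sites are a known feature of red cell enhancers. CTCF binds insulators and loop ends, and NF-Y binds CCAAT boxes, which are common in promoters.

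Sequences were read from GRCm38 (RefSeq), the forward strand, over the summit and 100 bases on each side of it. The first set shows the composite site at 5 of the strongest regions of red cell genes that hold one, and capitals mark CTG, 6 to 9 bases of any kind and then AGATAA or TGATAA, on either strand. Atp2b4 is a plasma membrane calcium pump, Ssbp3 encodes a cofactor of LDB1 complexes, Myb a progenitor transcription factor, Cpox an enzyme of heme synthesis and Mpp1 a palmitoylated membrane protein of red cells.
Atp2b4, chr1:133825612-133825812: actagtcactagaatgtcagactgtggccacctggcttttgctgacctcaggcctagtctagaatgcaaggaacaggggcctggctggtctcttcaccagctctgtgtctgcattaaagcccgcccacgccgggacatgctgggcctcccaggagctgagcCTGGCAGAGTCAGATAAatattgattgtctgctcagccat
Ssbp3, chr4:106870723-106870923: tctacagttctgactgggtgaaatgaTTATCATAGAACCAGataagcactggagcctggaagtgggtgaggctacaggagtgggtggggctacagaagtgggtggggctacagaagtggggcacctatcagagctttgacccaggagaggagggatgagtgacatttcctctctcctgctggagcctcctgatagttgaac
Myb, chr10:21196695-21196895: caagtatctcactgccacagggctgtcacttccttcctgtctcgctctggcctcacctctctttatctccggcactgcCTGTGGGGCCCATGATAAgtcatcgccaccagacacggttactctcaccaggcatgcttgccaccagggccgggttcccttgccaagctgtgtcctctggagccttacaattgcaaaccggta
Cpox, chr16:58661880-58662080: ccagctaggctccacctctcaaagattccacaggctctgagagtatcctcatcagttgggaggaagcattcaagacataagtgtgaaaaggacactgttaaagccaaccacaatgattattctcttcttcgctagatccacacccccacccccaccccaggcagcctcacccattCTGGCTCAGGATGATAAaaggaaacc
Mpp1, chrX:75137844-75138044: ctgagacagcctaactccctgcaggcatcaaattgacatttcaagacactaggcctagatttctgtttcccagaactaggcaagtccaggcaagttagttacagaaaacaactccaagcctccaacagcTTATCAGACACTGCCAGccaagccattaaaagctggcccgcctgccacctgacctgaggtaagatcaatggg

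The second set shows the 3 regions of largest signal on each side, which carried none of these composite sites. Capitals mark the stretch matching the mitochondrial genome in the window near Abcb11, and in the other windows a GATA, CTCF or CCAAT match where there was one. The CCAAT pattern was CCAAT followed by C or G and then by A or G.
Abcb11, chr2:69355501-69355701, upstream: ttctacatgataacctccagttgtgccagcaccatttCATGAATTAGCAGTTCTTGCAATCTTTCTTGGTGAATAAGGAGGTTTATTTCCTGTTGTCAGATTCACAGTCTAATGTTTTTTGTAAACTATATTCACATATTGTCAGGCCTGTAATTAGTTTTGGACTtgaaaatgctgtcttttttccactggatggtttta
Pak3, chrX:143482957-143483157, upstream: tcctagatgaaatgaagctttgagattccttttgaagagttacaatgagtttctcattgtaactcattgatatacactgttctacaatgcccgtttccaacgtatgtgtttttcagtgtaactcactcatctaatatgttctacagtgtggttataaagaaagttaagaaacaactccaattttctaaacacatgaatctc
Igf2bp3, chr6:49236414-49236614, upstream: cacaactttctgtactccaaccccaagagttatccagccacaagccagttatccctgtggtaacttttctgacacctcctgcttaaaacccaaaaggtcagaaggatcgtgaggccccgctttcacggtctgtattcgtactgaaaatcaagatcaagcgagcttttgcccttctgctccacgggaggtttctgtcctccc
Trim43b, chr9:89066800-89067000, downstream: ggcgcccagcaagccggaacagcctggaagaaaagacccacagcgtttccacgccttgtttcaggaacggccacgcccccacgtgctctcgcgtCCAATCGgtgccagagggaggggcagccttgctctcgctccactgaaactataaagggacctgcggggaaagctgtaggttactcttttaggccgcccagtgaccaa
Fam107a, chr14:8286644-8286844, downstream: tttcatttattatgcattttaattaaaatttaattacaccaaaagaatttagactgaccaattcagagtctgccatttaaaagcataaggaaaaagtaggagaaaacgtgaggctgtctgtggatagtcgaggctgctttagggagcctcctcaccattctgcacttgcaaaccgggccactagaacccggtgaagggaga
1810024B03Rik, chr2:127182849-127183049, downstream: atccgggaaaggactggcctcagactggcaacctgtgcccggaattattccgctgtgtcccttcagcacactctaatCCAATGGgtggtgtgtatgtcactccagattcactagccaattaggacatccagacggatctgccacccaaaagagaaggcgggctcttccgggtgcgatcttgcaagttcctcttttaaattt

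A last window shows a region at a tRNA gene, chosen after its values were seen as the strongest such region whose window holds the whole gene, in capitals. The gene is n-TVtac3, a valine tRNA on the forward strand.
n-TVtac3, chrX:160765998-160766198: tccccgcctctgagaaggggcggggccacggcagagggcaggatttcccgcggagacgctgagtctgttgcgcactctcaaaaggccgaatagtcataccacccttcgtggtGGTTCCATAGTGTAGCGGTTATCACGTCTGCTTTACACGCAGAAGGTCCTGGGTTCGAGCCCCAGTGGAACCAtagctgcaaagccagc

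The upstream share of the regions was close to the upstream share of the sequence they could occupy. Upstream regions made up 69.4% (Wilson interval 67.8 to 70.9) of the 3351, and upstream bases made up 70.4% of the 516.6 Mb that met the position limits. In the replicates' own lists the share was 70.4% and 69.6% (70.02% ± 0.582, SD, n = 2). Density was 6.39 regions per Mb upstream (exact 95% Poisson interval 6.13 to 6.65) and 6.72 downstream (6.31 to 7.14). The replicates' own lists, which are shorter, gave lower densities: 3.57 on both sides in replicate 1, and 4.17 upstream and 4.33 downstream in replicate 2. All intervals given here cover counting error only, and neighbouring regions are not independent.

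Density was lowest at 20 to 50 kb on both sides. Upstream it was 10.9 regions per Mb at 1 to 2 kb (9.39 to 12.6), 7.85 at 2 to 5 kb (7.05 to 8.71), 8.14 at 5 to 10 kb (7.44 to 8.88), 6.94 at 10 to 20 kb (6.40 to 7.51) and 4.42 at 20 to 50 kb (4.10 to 4.77). Downstream it was 9.79 at 1 to 2 kb, from 12 regions (5.06 to 17.1), and 7.10 at 2 to 5 kb (5.39 to 9.17). Farther downstream it was 8.83 at 5 to 10 kb (7.56 to 10.2), 8.68 at 10 to 20 kb (7.78 to 9.67) and 5.27 at 20 to 50 kb (4.79 to 5.78). From 10 kb outward the downstream density was thus the higher of the pair, by more than the counting intervals, and both replicates' own lists had the same order: at 10 to 20 kb replicate 1 had 4.34 downstream against 3.65 upstream, and replicate 2 had 5.56 against 4.61. Median distance was 11.7 kb upstream and 18.04 kb downstream. Sequence meeting the limits was scarce close to a start downstream, where gene bodies are left out. At 1 to 2 kb it was 16.7 Mb upstream and 1.23 Mb downstream, and at 20 to 50 kb 151.4 and 85.4 Mb. How far this sets the medians was not tested.

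**Figure D1:**
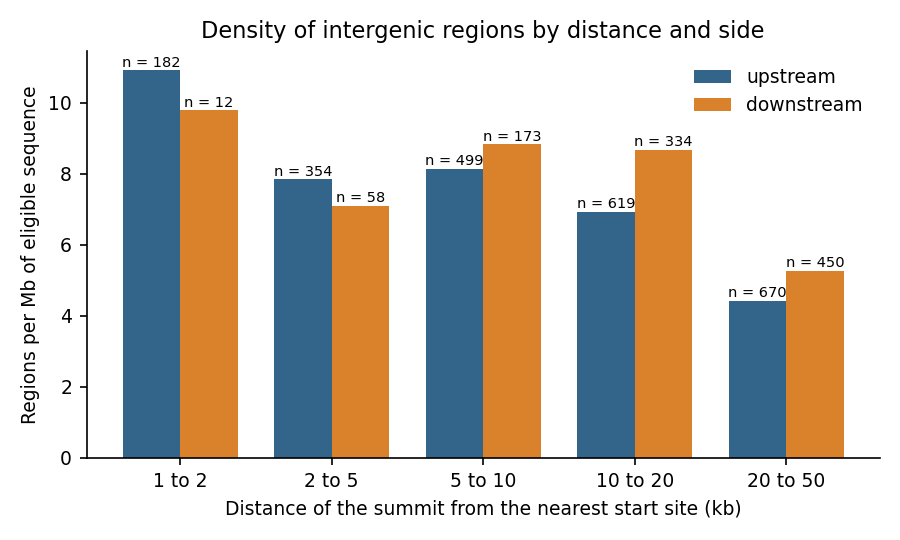
Regions per Mb of sequence meeting the position limits (vertical axis) by distance of the summit from the nearest protein-coding start in kb (horizontal axis), upstream in blue and downstream in orange, with the number of regions above each bar. Density is highest at 1 to 2 kb (10.9 upstream) and lowest at 20 to 50 kb (4.42 upstream and 5.27 downstream).

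The summit nearest the lower limit stood 1.003 kb upstream of Stard4, a sterol carrier, with a signal of 4.57, and the promoter region nearest to it from outside stood 0.999 kb from Zc3h4 with a signal of 6.41. At the upper limit a summit 49.965 kb from Gpc5, a glypican, had a signal of 6.43 and stood 594 bases from the start of Mir17hg, the host of a microRNA cluster. The first region beyond it, 50.055 kb from the GENCODE start of 2010111I01Rik, had a signal of 18.8. Its summit stood 14 bases from a RefSeq mRNA start, that of Aopep, so by RefSeq it lay at a start site.

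Signal and width were close on both sides. The median signal, the authors' enrichment value per peak, was 9.56 upstream and 9.63 downstream, with quartiles of 7.70 and 12.1 upstream and 7.92 and 11.8 downstream. Regions in introns had a median of 9.17, those over 50 kb from a start 9.92 and promoter regions 12.9. Median width was 413.5 bases upstream and 425 downstream, against 600 at promoters.

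Many of these regions were not called in the libraries taken alone. Of the 3351, 1458 (43.5%, 41.8 to 45.2) overlapped a region in both replicates' own thresholded lists, against 60.7% of all 20080 regions. A further 274 were called in replicate 1 alone and 519 in replicate 2 alone, and 1100 (32.8%) in neither, against 21.4% of all regions. The share in both lists was 43.8% upstream, 42.8% downstream, 42.0% in introns, 44.6% beyond 50 kb and 80.7% at promoters, so the counting intervals overlapped those of the intron and far classes and lay below that of promoters. The longer ranked lists, before thresholding, held 96.6% of the regions in replicate 1 and 97.6% in replicate 2.

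GATA sequences were found at 1489 of the 3351 summits (44.4%, 42.8 to 46.1), where the pattern was AGATAA or AGATAG or TGATAA or TGATAG on either strand of the window of 100 bases on each side of the summit. The share was 33.0% over all 20080 regions and 29.5% in windows of the same length centred 1 kb to each side of the regions. In the replicates' own lists it was 43.9% and 44.2%. Upstream regions had 45.2% (43.2 to 47.3) and downstream regions 42.6% (39.7 to 45.7), intervals that overlap. Regions over 50 kb from a start had 49.1% (46.3 to 51.9). Intron regions had 56.1% (54.8 to 57.5), and in the replicates' own lists 60.4% in replicate 1 and 58.5% in replicate 2.

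The composite site was present at 300 summits (8.95%, 8.03 to 9.97), against 6.73% of all regions and 1.55% of the flanking windows. Intron regions held it at 12.9% (12.04 to 13.8) and regions over 50 kb from a start at 11.5% (9.80 to 13.4). Every composite match contains a GATA match, so the counts are not separate. Regions with a composite site had a median width of 504 bases. Of the 300, 139 (46.3%) were called in both replicates' own lists, near the 43.5% of the 3351 and below the 60.7% of all 20080 regions.

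CTCF sites, searched as a degenerate core of the known motif on both strands, stood at 393 summits (11.7%, 10.7 to 12.9), against 5.55% of all regions, 6.49% of intron regions (5.86 to 7.19) and 0.145% of flanking windows. Regions over 50 kb from a start had 9.82% (8.26 to 11.6) and exon regions 10.2% (8.14 to 12.7), with intervals overlapping that of the regions described here, and 186 of 9497 promoter regions held a match. Downstream regions had 14.02% (12.03 to 16.3) and upstream regions 10.7% (9.52 to 12.04). The order was the same in the replicates' own lists, 11.6% against 7.94% in replicate 1 and 13.3% against 8.58% in replicate 2. By distance, the downstream share was the higher in each bin up to 20 kb, with 17.4% against 13.1% at 10 to 20 kb. At 20 to 50 kb, which held 450 of the downstream regions, it was the lower, 10.0% against 11.04%. The upstream regions at 1 to 2 kb had the lowest share of any upstream distance, 5.49%. Regions with a CTCF site were narrow, with a median of 305 bases, and 114 (29.0%) were called in both replicates' own lists although their median signal, 9.58, was near that of all the regions.

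**Figure D2:**
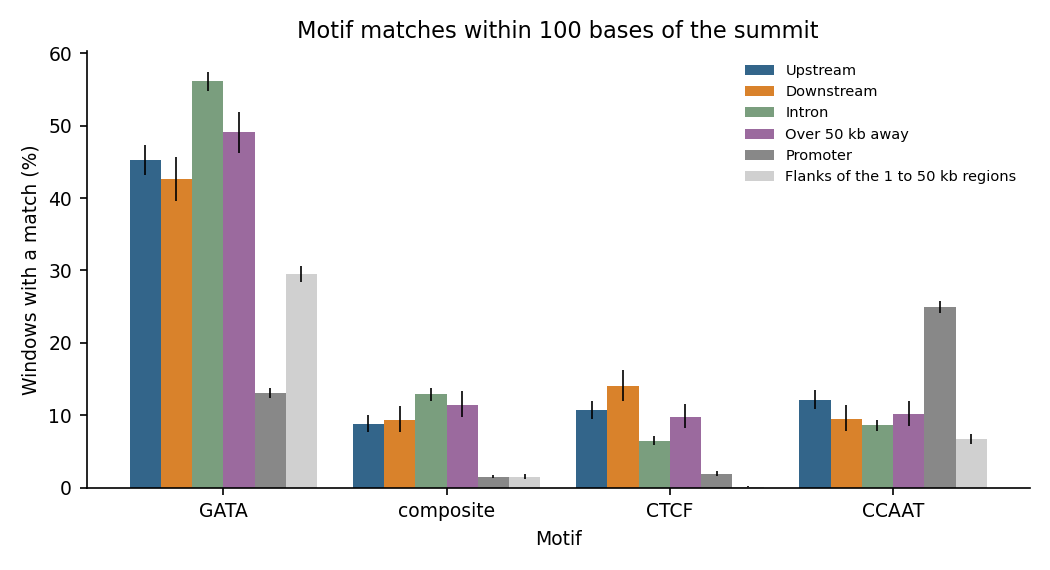
Share of windows (100 bases on each side of the summit) with at least 1 match (vertical axis, percent) for 4 motifs (horizontal axis) in upstream, downstream, intron, over 50 kb and promoter regions and in the flanks of the regions 1 to 50 kb from a start; bars are shares and lines are 95% Wilson intervals. GATA is at 45.2% upstream and 42.6% downstream, below introns at 56.1%, and CTCF is highest downstream at 14.02%.

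CCAAT boxes were most frequent among the strongest regions. The pattern was added after the data were seen; it stood at 380 summits (11.3%, 10.3 to 12.5), against 16.9% of all regions, 24.97% of promoter regions, 8.61% of intron regions, 10.1% of regions over 50 kb from a start and 6.71% of flanking windows. With the regions put in 10 equal bins by signal, the share was 12.2% in the weakest bin, 5.07% in the seventh and 26.7% in the strongest. GATA matches ran the other way, from 50.6% in the weakest bin to 30.6% in the strongest. CTCF matches peaked in the middle, at 18.2% in the fifth, and stood at 5.36% and 4.20% at the ends.

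The ends differed in the same direction in each library ranked by its own signal. GATA stood at 52.97% in the weakest bin and 25.9% in the strongest in replicate 1, and at 55.96% and 29.5% in replicate 2. CCAAT stood at 15.7% in the weakest and 32.4% in the strongest bin in replicate 1, and at 12.4% and 33.6% in replicate 2. CpG-rich sequence, with a CpG ratio over 0.6 and GC over 50%, moved with signal as well, from 10.4% in the weakest bin to 30.03% in the strongest, and its part in the motif shares was not tested.

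**Figure D3:**
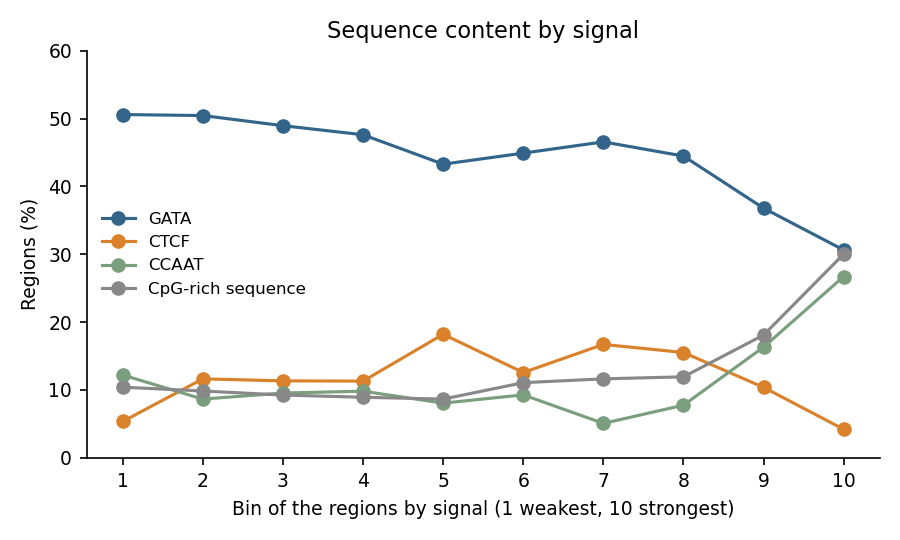
Share of the regions (vertical axis, percent) with a GATA, CTCF or CCAAT match or with CpG-rich sequence, in 10 equal bins of signal from weakest to strongest (horizontal axis). GATA goes from 50.6% to 30.6% while CCAAT reaches 26.7% and CpG-rich sequence 30.03% in the strongest bin.

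Matches gathered at the summits to different degrees. Of 454 CTCF matches within 500 bases of a summit, 371 (81.7%) were within 50 bases of it, as were 204 of 590 composite matches (34.6%), 294 of 1338 CCAAT matches (22.0%) and 1140 of 7434 GATA matches (15.3%). GATA matches reached 3.64 per kb just beside the summit and stood at 1.82 and 1.92 per kb at the outer edges.

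**Figure D4:**
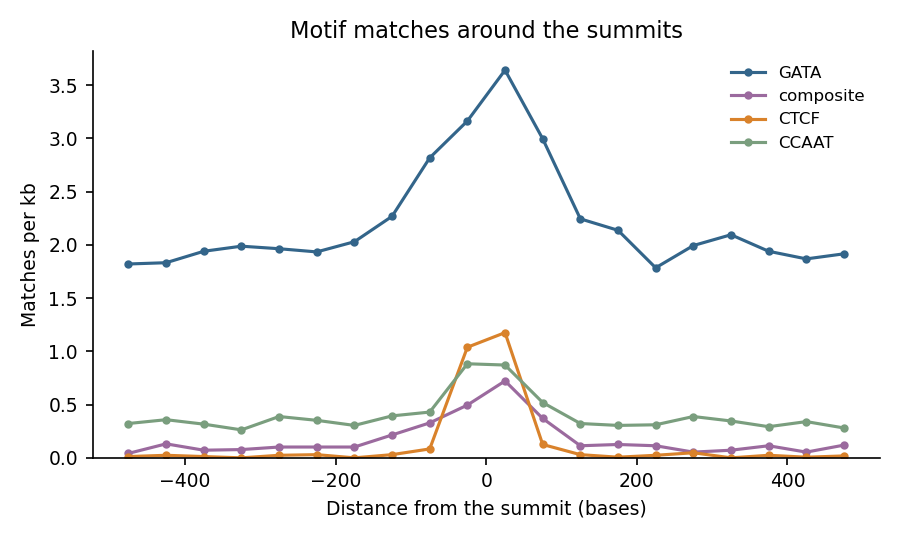
Matches per kb (vertical axis) in steps of 50 bases across the 500 bases on each side of the summits (horizontal axis) for 4 motifs. GATA reaches 3.64 per kb beside the summit, and CTCF reaches 1.18 per kb there and is close to 0 elsewhere.

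The regions of largest signal included near-copies of other sequence. Of the 16 named for signal, 8 on each side, 11 matched another place on the assembled chromosomes (100 bases or more at 90% identity) or the mitochondrial genome. Among all 3351 regions 195 (5.82%) did so. The region near Abcb11, which encodes the bile salt export pump, had the largest signal, 49.5, with 42.8 in replicate 1 and 45.7 in replicate 2. Its window matched mitochondrial DNA over 129 bases at 100% identity. Whether mitochondrial fragments or reads of other copies were placed at these regions was not tested.

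In all, 5 of the 3351 regions (0.149%) matched mitochondrial DNA, near the 26 of all 20080 (0.129%). Regions over 50 kb from a start had 13 of 1202 (1.08%). Each of the 5 was upstream of its nearest gene, the side that held 69.4% of the regions. Besides Abcb11 they were nearest to Grp, a neuropeptide gene (94.35% identity over 177 bases, signal 29.0), Nfasc, which encodes neurofascin (93.97% over 199 bases, signal 28.5), Fbxo33 (signal 15.8) and Them5 (signal 12.1). The regions near Pak3, with a signal of 46.01, and Igf2bp3, an RNA-binding protein, with 38.3, were matched against the assembled chromosomes alone. They matched 7 and 4 places there, themselves included. Copies in unplaced or unassembled sequence were not counted, so these are lower limits. All 16 were called in both replicates' own lists, as were all of the 100 strongest regions, against 60.7% of all 20080. The 16 were chosen by signal, so these calls say nothing particular to near-copies. Of the 16, 7 held a CCAAT match, 3 a GATA match and none a CTCF match. Among the 100 strongest the shares were 33%, 19% and 2%.

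Downstream the strongest region stood 25.8 kb from Trim43b and 71 bases from a RefSeq start of the noncoding RNA Gm24463, with a signal of 29.4 (25.5 in replicate 1 and 22.8 in replicate 2), followed by those near Fam107a at 27.9, 1810024B03Rik at 25.1, Nlgn3, a synaptic adhesion protein, at 23.8, Hepacam2 at 23.7, Gtf2ird1 at 23.4, Myl12b, a myosin light chain, at 22.68, and Actg1, a cytoplasmic actin, at 22.66. Upstream, Cd209a (30.4), Chst11 (30.3) and Gm12394 (29.97) completed the named set. By RefSeq mRNA starts, the summit near Gm12394 stood 864 bases from Fam205a1, and that near Gtf2ird1 was nearest to Gtf2i, 33220 bases away. Of the 16 nearest genes, 7 had a promoter region of their own in the list. Such a gene was nearest to 61.7% of all 3351 regions, and 41.9% of protein-coding genes had a promoter region.

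Red cell genes were often nearest to such a region. The 6 red cell lists held 164 genes, and 51 (31.1%) were the nearest gene of at least 1 region, against 2474 of 21853 protein-coding genes (11.3%). Genes with a promoter region in the list, whatever their role, were also nearest more often: 1488 of 9165 (16.2%, 15.5 to 17.0), against 986 of 12688 genes without one (7.77%, 7.32 to 8.25). Within the red cell lists the counts were 43 of 136 genes with a promoter region (31.6%, 24.4 to 39.8) and 8 of 28 without (28.6%, 15.3 to 47.1). Housekeeping genes stood at 7 of 18 (38.9%), while lymphoid genes stood at 1 of 20.

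The 51 genes had 83 regions between them, of which 59 were upstream. GATA matches stood at 50 of the 83 (60.2%) and composite sites at 18 (21.7%), against 44.0% and 8.63% of the regions nearest to other genes. CTCF matches stood at 4 of the 83, against 389 of the 3268 regions nearest to other genes. The median signal of the 83 was 8.34, below the 9.59 of the others, and 38 (45.8%) were called in both replicates' own lists, near the 43.5% of the others and below the 60.7% of all regions. The lists were written with earlier results of these data known, so the counts describe them and test nothing.

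Membrane and skeleton genes of the red cell had the largest share, 16 of 40, with 24 regions. The strongest was upstream of Atp2b4, whose sequence is given above, with 13.1 in replicate 1 and 15.5 in replicate 2. Slc4a1, the anion exchanger band 3, had a region 10.1 kb upstream with 11.6 and 12.7, which stood 92 bases from the RefSeq start of the noncoding RNA Gm34253 and 1643 bases from the GENCODE start of Bloodlinc, a noncoding RNA of red cells. Cd24a (11.5 and 8.62), Gypc, a glycophorin (7.71 and 9.92), Bsg (8.44 and 8.35), Mpp1 (7.81 and 8.14) and Aqp3, a water and glycerol channel (8.35 and 8.88), followed. The regions near Cd24a and Gypc were called in the own list of 1 replicate and that near Mpp1 in neither. The RefSeq mRNA start nearest to the Bsg region was that of Hcn2, 3930 bases away.

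Erythroid transcription factors and cofactors had regions at 13 of 38 genes, 25 in all, 16 with a GATA match. Trim33, a cofactor of SMAD signalling, was nearest to 5 of them and had no promoter region in the list. Those downstream stood 32.6 to 41.7 kb from a GENCODE start of Trim33, but 94957 to 104081 bases from its nearest RefSeq mRNA start. The strongest, which was downstream, had 10.1 in replicate 1 and 14.3 in replicate 2, one of the wider gaps between libraries. Klf3, a repressor of the Krüppel family, showed a like gap, 8.85 and 12.98. Lmo2, the bridging factor of the GATA1 and TAL1 complex, had 11.2 and 13.8, and Klf13 (11.6 and 11.8), Ikzf1 (12.1 and 11.8) and Bach1, a heme-sensing repressor (11.1 and 11.99), were close between libraries. Myb, which has known erythroid enhancers upstream, had 10.4 and 8.30 at a region 35.8 kb upstream. Ssbp3 had 8.96 and 10.3 at a region called in replicate 1 alone.

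Heme genes had regions at 5 of 24. Hmox1, which breaks heme down, had 15.01 in replicate 1 and 16.1 in replicate 2, 9.57 kb upstream. Cpox had 10.1 and 9.56. Alas2, the first enzyme of heme synthesis in red cells, had 9.28 and 6.91 at a region 31.2 kb upstream that was called in replicate 1 alone. The RefSeq mRNA start nearest to that region was that of Tmem29, 21150 bases away, and Alas2 had no promoter region in the list. Globin genes had regions at 2 of 10, Hbb-y and Hbq1a. The strongest Hbb-y region, 7.92 kb upstream on the side of the locus control region, had 12.5 and 11.2 and was called in both lists. Weaker Hbb-y regions stood on the same side. That at 6.05 kb had 7.28 and 6.80 and was called in both lists, and that at 12.7 kb had 7.05 and 6.24 and was called in replicate 1 alone.

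Receptor, survival and enucleation genes had regions at 9 of 36. Socs3, an inhibitor of cytokine signalling, had the largest signal of any red cell gene, 17.8 in replicate 1 and 17.7 in replicate 2, at a CpG-rich region downstream. Rac2, a small GTPase, had 15.6 and 17.6 at a region 24 bases from the start of the noncoding RNA Gm36738, and Cdkn1a, a cell cycle inhibitor, had 9.62 and 10.4 at a region 91 bases from the start of Trp53cor1. Pim1, a survival kinase, had 8.94 and 11.1. Iron genes had regions at 6 of 16, the strongest near Aco1, which encodes a cytosolic aconitase that also senses iron. The Aco1 region had 7.55 and 8.14 and was called in neither own list.

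**Figure D5:**
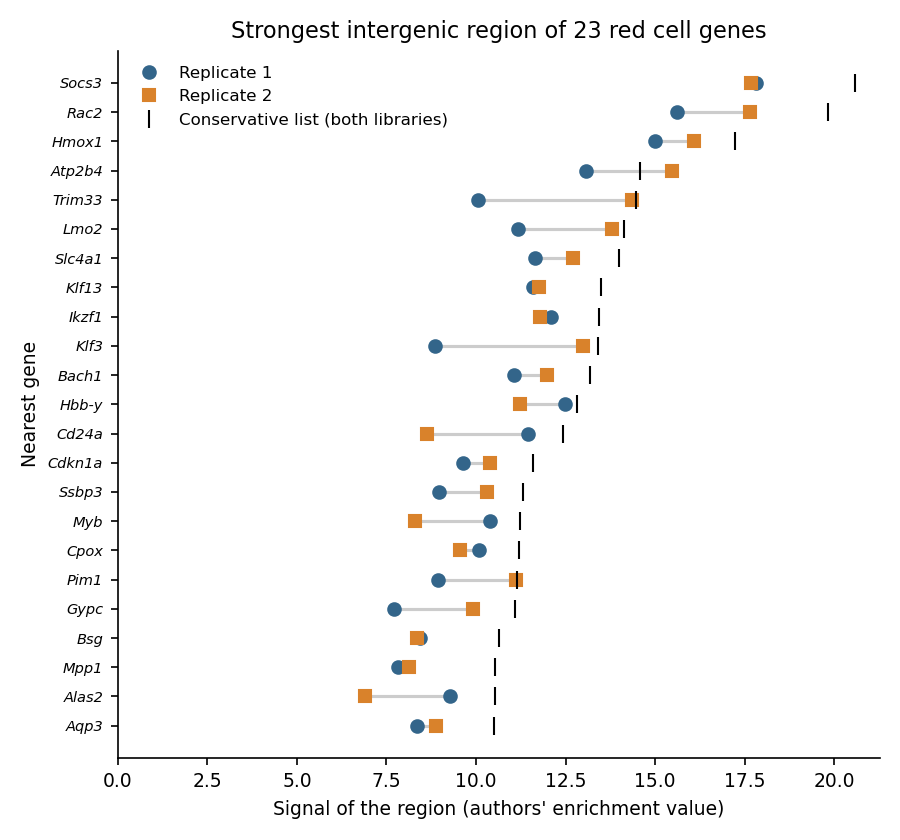
Signal (horizontal axis, the authors' enrichment value) of the strongest region of each of 23 red cell genes (vertical axis) in replicate 1 (circles), replicate 2 (squares) and the list made from both (ticks). Replicate 2 is the higher in 15 of the 23, and the widest gaps are at Trim33 (10.1 and 14.3) and Klf3 (8.85 and 12.98). The median signal of the regions 1 to 50 kb from a start was likewise higher in replicate 2, 8.34 against 7.91. How the lists were scaled is not given, so gaps between libraries only describe the deposited values.

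Over all 51 red cell genes the strongest region was called in both own lists for 27, in 1 list for 14 and in neither for 10, against 60.7% of all regions called in both. A further 27 genes, with strongest regions of lower signal, were Foxo3, Aco1, Abcc4, Slc2a1, Slc11a2, Glrx5, Cd47, Tal1, Jak2, Hdac2, Pcbp1, Cdkn1b, Slc48a1, Hbq1a, Fech, Kcnn4, Add1, Cish, Fth1, Zfp36l2, Epb41, Kel, Car2, Add2, Ftl1, Ssbp2 and Gclm. Among genes of other cell types the strongest regions were near Gata2 for progenitors (8.39 in replicate 1 and 7.39 in replicate 2, 3 of 21 genes), Gp9 for megakaryocytes (9.54 and 12.4, 2 of 18, at a summit 82 bases from a RefSeq mRNA start of Gp9 itself), Cebpb for myeloid and mast cells (11.3 and 16.9, 5 of 24), Gata3 for lymphoid cells (6.90 and 6.68) and Neurog2 for neurons (11.95 and 10.04, 2 of 15). Actb led the housekeeping genes with 17.2 and 21.7. Of these regions, that near Gata2 was called in replicate 2 alone, that near Gata3 in neither own list and the others in both.

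Most genes had a single region. Of the 2474 genes, 1877 were nearest to 1 region and 407 to 2, and 17 were nearest to 5 or more. Eapp, Ptma and Zfp217 had 7 each, and Ccr1 and Jade1 had 6 each. The 7 near Eapp were all upstream and all called in both own lists, and 1 held a GATA match. Ptma, which encodes prothymosin alpha, had 6 upstream and 1 downstream, again all called in both lists. Ccr1, a chemokine receptor gene, had 6 downstream, 3 of them with a GATA match, and like Zfp217 had no promoter region in the list. The 12 genes with 5 were 1600014C23Rik, Actg1, Agfg1, Egr1, Irf2bp2, Irf2bpl, Mreg, Nek2, Notch3, Olfr1423, Tex44 and Trim33, and the 5 near Agfg1 each held a GATA match.

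Starts of other transcripts lay at a part of the regions. A GENCODE noncoding start stood within 1 kb of 11.97% of the summits, a distance that covered 3.90% of the eligible bases, and the commonest kinds were lincRNA (168), processed transcript (55) and processed pseudogene (38). With RefSeq starts of any kind added, 658 regions (19.6%) had such a start, among them 98 within 1 kb of a RefSeq mRNA start. The share was also 19.6% (236 of 1202) in regions over 50 kb from a protein-coding start, and 9.13% in introns. Of the 658, 385 (58.5%) were called in both own lists, against 1073 of the other 2693 (39.8%) and 60.7% of all 20080 regions. A GATA match stood at 33.0% of the 658, against 47.2% of the other 2693. CpG-rich regions, 435 in all, had a median signal of 11.1 against 9.41 for the others. Of the CpG-rich regions 70.8% were called in both own lists, against 39.4% of the others and 60.7% of all 20080 regions.

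Some regions stood at tRNA genes. Summits of 50 regions lay within 250 bases of the start of a RefSeq tRNA gene, and these reached 53 of the 403 tRNA genes (13.2%), of which 254 had a start that met the position limits. Over all 20080 regions 71 tRNA genes were reached, 15 of them by promoter regions and 1 by intron regions. The 50 regions had a median signal of 7.81, 24 (48%) were called in both own lists, against 43.5% of the 3351 and 60.7% of all regions, 12 (24%) held a GATA match, against 44.4%, and none held a composite site. Leucine (8), arginine (6) and glycine (5) tRNAs were the commonest, and chromosomes 13 (9 regions) and 11 (8) held the most. The strongest, at the arginine tRNA gene n-TRccg1, had 13.1 in replicate 1 and 12.3 in replicate 2, and the valine tRNA region shown above had 12.2 in each.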

How the data were processed

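ATAC-seq peak lists of 2 libraries of 1 group were used. The signal (narrowPeak column 7) and the −log10 p (column 8) of each peak are values the authors deposited, with aligner, peak caller, read shift and signal scaling not given in the sources used here. The build is mm10 per the labels. From the 7 lists used, overlapping rows were merged, the summit of largest signal stood for a region, and regions were placed by 54361 protein-coding starts of GENCODE release M21. An overlap of 50% or more of the shorter region counted as shared. Replicate values came from each library's own ranked list, in place of the replicate columns of the joint ranked list that had been planned, whose columns name no sample. Motifs were searched at each summit and 100 bases to each side, and near-copies with BLAST+ 2.17.0. Python 3.11.15 and pandas 2.3.3 were used, and the functions were tested on simulated data. Shares have 95% Wilson intervals and densities exact Poisson intervals, which cover counting error only; no test was run.

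The regions, gene lists and tests were chosen with earlier results of these data known. Regions were named by rule: the 8 of largest signal on each side, the strongest of each red cell gene (up to 24 with values), the 10 genes nearest to most regions with ties kept, those at the distance limits and the strongest of each of 7 other lists; tRNA genes, mitochondrial matches and CCAAT were added after values were seen. Of 297 list genes, 2 were not found, and some results chosen by the rule are not reported here. Alternatives tried were other peak lists, 1 library left out, a signal minimum, no merging, other gene bodies, starts, limits, overlaps and windows.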

Additional observations from a re-analysis of the deposited data

How the results depend on the processing

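The number of regions, 3351, was 1843 to 2178 with either replicate left out, 9543 in the replicated list without an IDR threshold, 2231 at most 20 kb from a start and 1256 with signal above the list's median. The upstream share, 69.4%, was 69.6% to 70.4% with either replicate left out, 73.4% with 1 start per gene, 74.1% at most 20 kb and 66.9% at most 100 kb from a start, 67.8% over 2 kb from a start and 68.3% outside genes of every biotype. The upstream share of bases, 70.4%, was computed for the main limits alone, so these shares have no base share of their own beside them. The GATA share, 44.4%, was 43.9% to 44.2% with either replicate left out, 28.4% and 61.2% in windows of 50 and 200 bases on each side, 38.8% above the median signal, 43.0% without merging, 45.4% in the replicated list, 44.8% with 1 start per gene, 44.7% outside genes of every biotype, and, in alternatives chosen after seeing the data, 47.2% away from other starts and 44.8% without near-copies. The share called in both own lists, 43.5%, was 76.8% above the median signal, 48.6% without merging and 39.8% away from other starts. The red cell genes, 51, were 37 to 40 with either replicate left out, 81 in the replicated list, 20 above the median signal and 91 when any start within 50 kb counted. Over all alternatives composite sites ranged from 5.07% to 11.5%, CTCF from 9.01% to 13.0% and CCAAT from 7.43% to 16.6%. The cause was not tested beyond what each alternative's construction sets. The other values of these 5 results moved by less than the replicate spread or counting interval, or under 1.5 times for counts. No paired analysis was possible because the libraries form 1 group. Unknown depth limits what absence from a list shows.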
